A study of Mus musculus with 5 samples.

Results

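The genes described here are 54 components of the mammalian cell division cycle, measured in cultured cancer-associated fibroblasts (CAFs). They were taken by gene symbol from a table of 54636 genes and sorted by textbook role into 15 genes of G1/S control, 11 of DNA replication, 19 of mitosis and 9 of cytokinesis. All 54 symbols were found in the table.

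In G1, D-type cyclins activate the kinases Cdk4 and Cdk6, which phosphorylate the retinoblastoma protein and its relatives and so release E2F transcription factors. E2F then drives the genes of cyclin E, of the MCM helicase and of nucleotide synthesis, whereas genes of mitosis and cytokinesis are induced later, largely by B-Myb and FoxM1 acting with the MuvB complex. In mitosis, Cdk1 with cyclins A and B, the Polo and Aurora kinases and the spindle checkpoint control chromosome segregation, and the anaphase-promoting complex then destroys the mitotic cyclins. In cytokinesis, the central spindle directs the small GTPase RhoA to the equator, where a ring of actin and non-muscle myosin II cleaves the cell before abscission.

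The data hold 5 RNA sequencing libraries of mouse CAFs, 1 per condition, all from lines immortalized with SV40 large T-antigen, a viral protein that binds retinoblastoma family proteins and p53. The myosin IIA KO CAFs came from a tumor of an αSMA-CreERT2; R26mT/mG; myosin IIA fl/fl mouse, in which the Myh9 gene of the myosin IIA heavy chain is floxed and Cre is driven by the αSMA promoter, so that recombination is limited to αSMA-expressing cells. The Cre- CAFs are labelled as from the same floxed mice without Cre, and 2 µM tamoxifen is given for both cultures. Every label names a subcutaneous rectal tumor as the tissue. For the floxed strain the study's methods differ from this label. They describe tumors grown from mouse intestinal tumoroids that were injected into the interscapular fat pad of irradiated, bone marrow transplanted mice. The Fn1 siRNA CAFs and the control siRNA CAFs were mouse fibroblasts grown out of a patient-derived xenograft (PDX) of a human rectal tumor in nude mice and transfected with siRNA against fibronectin or with a non-targeting siRNA. The untreated PDX CAFs had the same kind of origin and no transfection. The sources used here do not say which of the Fn1 siRNAs was sequenced, how many animals stand behind a line or at what density cells were harvested.

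Library totals ran from 22961620 to 26596351 counts, so that 3 counts were 0.108 to 0.135 CPM (counts relative to the library total, scaled by TMM). Myh9 was at 425 CPM in myosin IIA KO CAFs, against 2419 CPM in Cre- CAFs, and Fn1 was at 1282 CPM in Fn1 siRNA CAFs, against 4778 CPM in control siRNA CAFs. Summed over 8 fibroblast markers the libraries held 20342 to 44895 CPM, whereas 6 immune markers summed to at most 2.89 CPM, 6 epithelial markers to at most 12.5 CPM and 4 endothelial markers to at most 8.57 CPM. Ptprc, which encodes CD45, had no count in any library. Since no condition was sequenced more than once, no p-value was computed, and the 95% intervals beside the values cover counting error only. In RNA from whole cultures, fewer cells in a cell cycle phase and less RNA of a gene per cell cannot be told apart.

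Genes of replication and genes of cell division are known for different control elements close to their start sites, so promoters were read before the levels. A promoter was taken as the 300 bases from 250 before to 50 after a RefSeq start site (build GRCm38.p6), and 44 of the 54 members had at least 1, giving 51 promoters among 32851 in all. The cell cycle homology region (CHR), through which MuvB complexes bind, was searched as TTTGAA or TTCGAA on both strands. It occurred in 12 of 16 promoters of mitosis members and in 9 of 10 promoters of cytokinesis members, against 19.2% of all promoters. Those 10 promoters belong to 7 genes, and the windows of Ect2, Prc1 and Cep55 overlap and hold the same letters again. By gene, the CHR occurred in 6 of 7 cytokinesis members, against 21.7% of all genes. In 11 of the 16 and in 9 of the 10 it lay within 50 bases of the start site, against 5.31% of all promoters. Only 2 of 11 promoters of replication members and 2 of 14 of G1/S members held it.

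**Figure D1:**
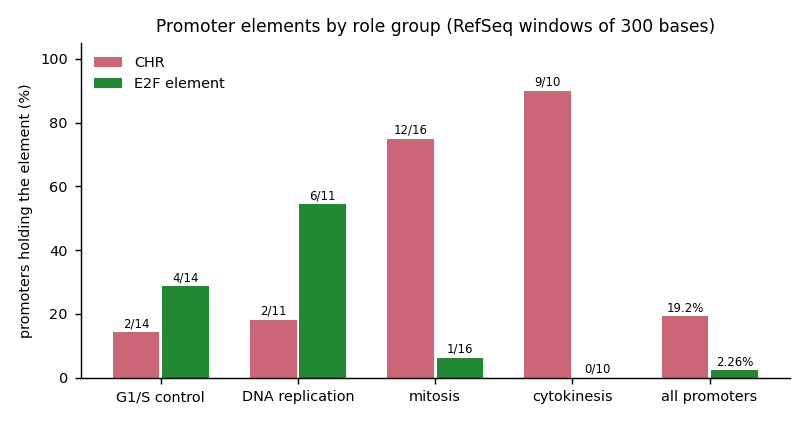
Share of promoters that hold a CHR (red) or an E2F element (green), in percent, for the 4 groups of members and for all 32851 RefSeq promoters, with the promoters that hold it of those read above each bar (the percentage for all promoters). CHR letters occurred in 75% of mitosis and 90% of cytokinesis promoters (6 of 7 cytokinesis genes, some with overlapping windows), and E2F letters in 54.5% of replication promoters.

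The promoters of Cdc20 (chr4:118437294-118437593, minus strand), Kif23 (chr9:61946750-61947049, minus strand) and Racgap1 (chr15:99651607-99651906, minus strand) show the arrangement for a mitotic gene and for both subunits of centralspindlin, the central spindle complex. Capitals mark the CHR, which began 18 bases before the start site in Cdc20, 3 after it in Kif23 and 6 after it in Racgap1.
Cdc20: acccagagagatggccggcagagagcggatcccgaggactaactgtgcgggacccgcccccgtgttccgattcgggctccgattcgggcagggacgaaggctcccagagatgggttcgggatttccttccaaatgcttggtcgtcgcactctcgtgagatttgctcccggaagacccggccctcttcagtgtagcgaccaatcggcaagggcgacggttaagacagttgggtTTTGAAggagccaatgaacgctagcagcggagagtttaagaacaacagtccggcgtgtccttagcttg
Kif23: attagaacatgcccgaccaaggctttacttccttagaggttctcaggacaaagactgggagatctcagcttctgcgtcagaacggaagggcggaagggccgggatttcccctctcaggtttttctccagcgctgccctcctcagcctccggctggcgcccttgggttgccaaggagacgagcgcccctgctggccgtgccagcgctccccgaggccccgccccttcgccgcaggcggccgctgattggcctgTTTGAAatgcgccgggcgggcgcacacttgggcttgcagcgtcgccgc
Racgap1: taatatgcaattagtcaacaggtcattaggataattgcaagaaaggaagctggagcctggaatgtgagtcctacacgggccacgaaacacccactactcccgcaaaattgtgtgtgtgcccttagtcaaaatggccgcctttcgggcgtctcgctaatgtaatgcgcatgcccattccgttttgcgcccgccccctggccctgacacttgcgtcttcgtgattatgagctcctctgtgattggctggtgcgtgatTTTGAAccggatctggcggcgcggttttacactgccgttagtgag
A CCAAT box, the letters bound by NF-Y, also lay in each of these windows, on the strand of the gene in Cdc20 and on the opposite strand in Kif23 and Racgap1. CCAAT occurred in 14 of 16 mitosis promoters and 6 of 10 cytokinesis promoters, against 37.4% of all promoters. By gene, it occurred in 4 of 7 cytokinesis members, against 41.1% of all genes. It was not limited to these groups, with 8 of 11 replication promoters and 6 of 14 G1/S promoters holding it.

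E2F elements were searched as TTTCCCGC, TTTCGCGC, TTTGCCGC or TTTGGCGC on both strands. They occurred in 6 of 11 promoters of replication members and in 4 of 14 of G1/S members, against 2.26% of all promoters, and in 1 of 16 mitosis promoters and 0 of 10 cytokinesis promoters. The promoters of Mcm5 (chr8:75109259-75109558, plus strand) and Mcm6 (chr1:128359656-128359955, minus strand), subunits of the replicative helicase, are shown with these letters in capitals.
Mcm5: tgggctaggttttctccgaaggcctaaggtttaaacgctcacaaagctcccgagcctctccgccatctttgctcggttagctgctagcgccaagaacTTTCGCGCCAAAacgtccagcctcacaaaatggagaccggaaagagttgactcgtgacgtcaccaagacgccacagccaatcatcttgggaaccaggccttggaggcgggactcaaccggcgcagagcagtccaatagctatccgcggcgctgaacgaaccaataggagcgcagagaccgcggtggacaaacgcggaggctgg
Mcm6: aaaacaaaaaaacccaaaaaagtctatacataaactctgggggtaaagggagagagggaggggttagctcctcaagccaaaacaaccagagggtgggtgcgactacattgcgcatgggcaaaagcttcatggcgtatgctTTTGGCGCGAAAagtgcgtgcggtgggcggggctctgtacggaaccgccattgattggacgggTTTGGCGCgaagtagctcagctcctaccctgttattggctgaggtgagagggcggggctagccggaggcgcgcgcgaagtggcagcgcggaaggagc
Mcm5 held 2 matches that overlap on opposite strands in 1 run of capitals. Mcm6 held 3, of which 2 overlap in the same way. These matches describe letters in a window and are not measured binding sites. Kif20a, Incenp, Aurkb, Ccna2, Ccnd2, Ccnd1, Ccne2, Mcm4, Foxm1 and Rb1 had no promoter in the table used.

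The members were abundant in every library. Between 30 and 34 of the 54 were at 100 CPM or more, which is 55.6 to 63.0% of them, against 15.3 to 17.3% of the 14022 genes at 1 CPM or more in any library. Cdk6 in myosin IIA KO CAFs, at 0.904 CPM, was the single value under 1 CPM. Summed over the 54 genes, the level was 6404 CPM in myosin IIA KO CAFs and 7038 CPM in Cre- CAFs. It was 7825 CPM in Fn1 siRNA CAFs, 7899 CPM in control siRNA CAFs and 8699 CPM in untreated PDX CAFs. Myosin IIA KO CAFs had the lowest value of the 5 libraries for 35 of 54 members, against 28.7% of all genes, and untreated PDX CAFs had the highest for 33 of 54, against 20.9% of all genes.

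**Figure D2:**
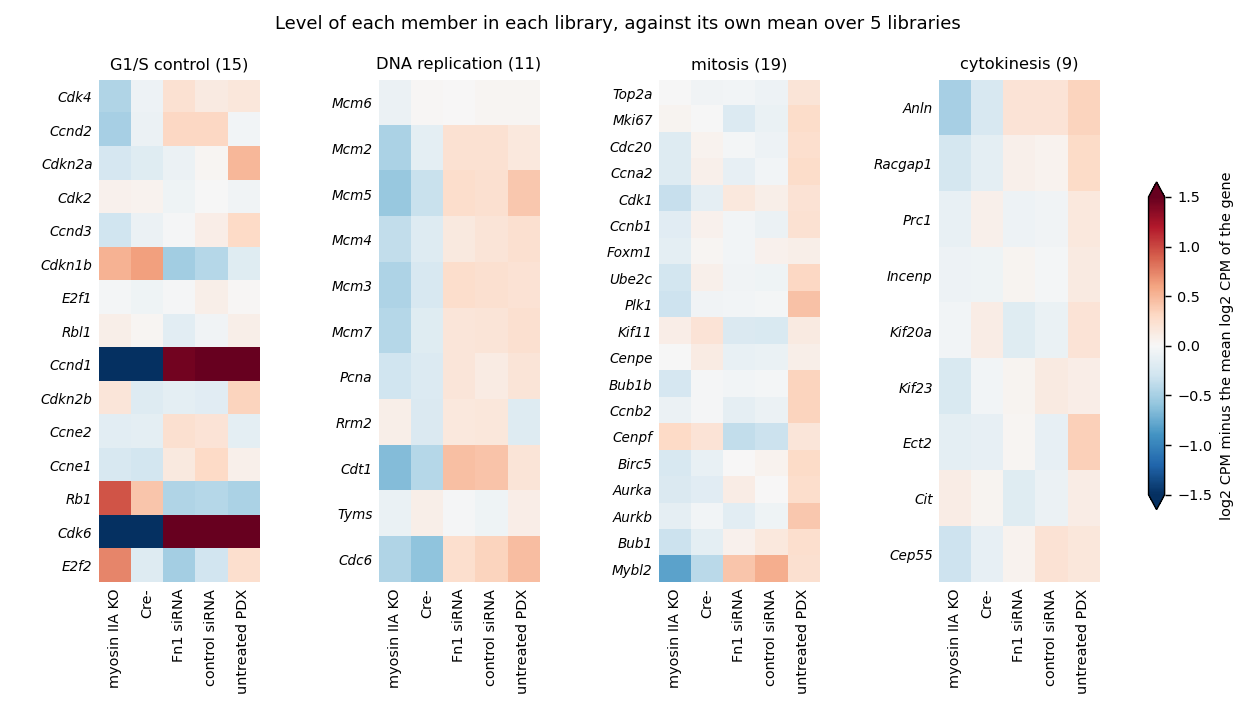
Level of each of the 54 members in the 5 libraries, as log2 CPM minus the mean log2 CPM of that gene over the libraries (colour, blue below and red above, limited to 1.5 either way), with genes sorted from high to low mean level within each group. Ccnd1 and Cdk6 are far below their own mean in both myosin IIA KO and Cre- CAFs, and most replication genes are below it in the same pair of libraries.

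Among the D-type cyclins, which receive growth signals in G1, Ccnd1 (ENSMUSG00000070348, mm10 chr7:144929931-144939925, minus strand) set the lines apart by origin. Its level was 10.3 CPM in myosin IIA KO CAFs, 13.5 CPM in Cre- CAFs, 163 CPM in Fn1 siRNA CAFs, 181 CPM in control siRNA CAFs and 186 CPM in untreated PDX CAFs. The 3 PDX libraries were thus all above 160 CPM and both libraries of the floxed strain under 14 CPM. Against untreated PDX CAFs, Cre- CAFs had 13.7-fold less (log2 ratio -3.77, 95% interval -3.94 to -3.62). Of the Ccnd1 exon length, 23.4% overlaps the gene LTO1 on the other strand, and whether counting used strand is not stated in the sources used here.

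Ccnd2, the cyclin D2 gene, held 166 CPM in myosin IIA KO CAFs, 219 CPM in Cre- CAFs, 289.9 CPM in Fn1 siRNA CAFs, 290.2 CPM in control siRNA CAFs and 227 CPM in untreated PDX CAFs. Cre- CAFs and untreated PDX CAFs differed little in it (log2 ratio -0.05, interval -0.10 to 0.01). Ccnd3 was at 78.1 CPM in myosin IIA KO CAFs, 90.6 CPM in Cre- CAFs, 94.4 CPM in Fn1 siRNA CAFs, 103 CPM in control siRNA CAFs and 118 CPM in untreated PDX CAFs. Compared per length, as TPM (abundance divided by gene length), Ccnd2 was the leading D-type cyclin in both libraries of the floxed strain and Ccnd1 in the 3 PDX libraries. Ccnd2 made up 61.4% of the D-type cyclin TPM in myosin IIA KO CAFs and 63.8% in Cre- CAFs, and Ccnd1 7.65% and 7.88% there. In the PDX lines, Ccnd1 made up 45.5% with Fn1 siRNA, 47.5% with control siRNA and 51.2% without transfection. Without division by gene length, Ccnd2 led in all 5 libraries, so the order of Ccnd1 and Ccnd2 in PDX CAFs rests on the length correction.

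**Figure D3:**
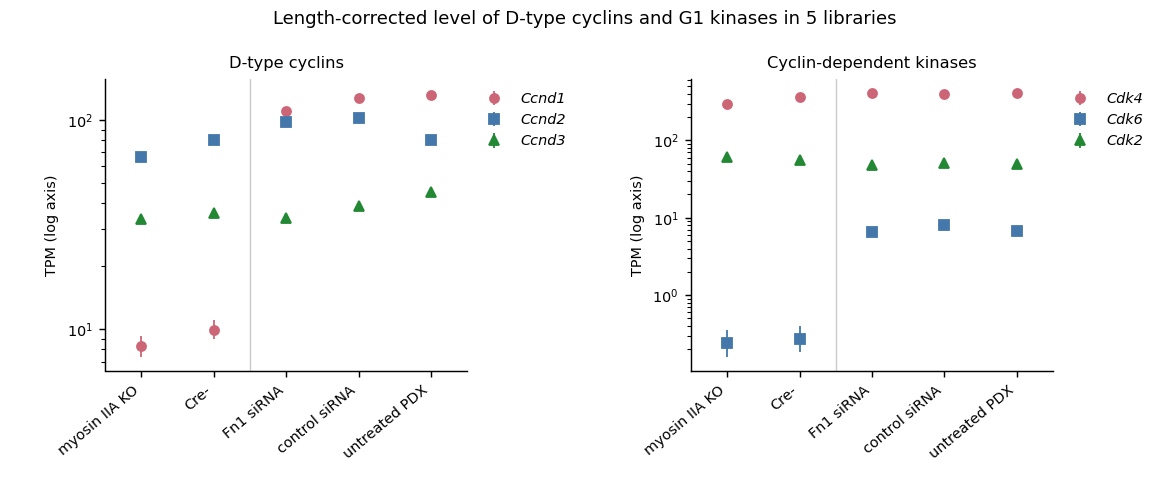
Level in TPM (log axis) of the D-type cyclin genes Ccnd1, Ccnd2 and Ccnd3 (left) and of the kinase genes Cdk4, Cdk6 and Cdk2 (right) in the 5 libraries, with 95% Poisson counting intervals. Ccnd1 and Cdk6 are low in both myosin IIA KO and Cre- CAFs and high in the 3 PDX libraries, whereas Ccnd2, Ccnd3, Cdk4 and Cdk2 span a narrower range over the libraries.

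The kinase gene Cdk6 (ENSMUSG00000040274, mm10 chr5:3341485-3531008, plus strand) followed Ccnd1. It had 25 counts in myosin IIA KO CAFs and 29 in Cre- CAFs, against 649 in Fn1 siRNA CAFs, 891 in control siRNA CAFs and 674 in untreated PDX CAFs. These counts are 0.904, 1.11, 29.2, 34.3 and 28.5 CPM in the same order of libraries. Cre- CAFs had 25.3-fold less Cdk6 than untreated PDX CAFs (log2 ratio -4.66, interval -5.28 to -4.15), the lowest ratio of any member in any of the 4 comparisons. Cdk4, the other cyclin D kinase, was high throughout, at 259 CPM in myosin IIA KO CAFs, 338 CPM in Cre- CAFs, 415 CPM in Fn1 siRNA CAFs, 389 CPM in control siRNA CAFs and 399 CPM in untreated PDX CAFs. Its TPM was 1232 times that of Cdk6 in myosin IIA KO CAFs and 1312 times in Cre- CAFs, against 61.0 times with Fn1 siRNA, 48.9 times with control siRNA and 60.3 times in untreated PDX CAFs. Of the Cdk4 exon length, 19.7% overlaps Tspan31 on the other strand. Cdk2, the cyclin E kinase, stayed between 93.2 and 101 CPM.

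The cyclin E genes were lower and varied less. Ccne1 was at 29.4 CPM in myosin IIA KO CAFs, 28.7 CPM in Cre- CAFs, 38.3 CPM in Fn1 siRNA CAFs, 42.4 CPM in control siRNA CAFs and 36.4 CPM in untreated PDX CAFs. Ccne2 was at 32.3 CPM in myosin IIA KO CAFs, 32.6 CPM in Cre- CAFs, 42.6 CPM in Fn1 siRNA CAFs, 41.4 CPM in control siRNA CAFs and 32.6 CPM in untreated PDX CAFs. In both genes the transfected libraries held the highest values. Of the Ccne2 exon length, 17.4% overlaps Ints8 on the other strand.

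Among the inhibitors of these kinases, Cdkn2a had the highest TPM of all members in every library, between 488 TPM in Fn1 siRNA CAFs and 769 TPM in untreated PDX CAFs. The gene encodes p16Ink4a, an inhibitor of Cdk4 and Cdk6, and p19Arf, which acts on the p53 pathway, and counts per gene do not separate them. Its level was 160 CPM in myosin IIA KO CAFs, 168 CPM in Cre- CAFs, 180.3 CPM in Fn1 siRNA CAFs, 196 CPM in control siRNA CAFs and 269.8 CPM in untreated PDX CAFs. The neighbouring Cdkn2b, which encodes p15Ink4b, was at 52.9 CPM in myosin IIA KO CAFs, 40.9 CPM in Cre- CAFs, 42.3 CPM in Fn1 siRNA CAFs, 41.5 CPM in control siRNA CAFs and 59.0 CPM in untreated PDX CAFs. Myosin IIA KO and untreated PDX CAFs thus had more Cdkn2b than the other 3 libraries. Cdkn1b, which encodes the cyclin E/Cdk2 inhibitor p27Kip1, ran the other way from Cdk6, with 135 CPM in myosin IIA KO CAFs and 144 CPM in Cre- CAFs, against 65.6 CPM in Fn1 siRNA CAFs, 69.9 CPM in control siRNA CAFs and 82.9 CPM in untreated PDX CAFs. Its log2 ratio of Cre- over untreated PDX CAFs was 0.79 (interval 0.71 to 0.87).

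Rb1, the retinoblastoma gene, was also higher in the floxed strain. It stood at 45.2 CPM in myosin IIA KO CAFs, 31.2 CPM in Cre- CAFs, 17.1 CPM in Fn1 siRNA CAFs, 17.4 CPM in control siRNA CAFs and 16.8 CPM in untreated PDX CAFs. The PDX libraries lay within 1 CPM of each other and below both others. Of the Rb1 exon length, 14.9% overlaps Rcbtb2 and Lpar6 on the other strand. E2f2 (ENSMUSG00000018983, mm10 chr4:136172394-136196057, plus strand), which encodes an activating E2F, was the member farthest above Cre- CAFs in myosin IIA KO CAFs, with 10.5 CPM in myosin IIA KO CAFs, 5.51 CPM in Cre- CAFs, 4.42 CPM in Fn1 siRNA CAFs, 5.19 CPM in control siRNA CAFs and 7.54 CPM in untreated PDX CAFs. These are 291, 144, 98, 135 and 178 counts in the same order of libraries. In the 3 PDX libraries no member had fewer. E2f1, the better expressed activating E2F, stayed between 80.0 and 88.7 CPM, and Rbl1, which encodes the retinoblastoma relative p107, between 56.7 and 67.2 CPM.

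Of 11 replication genes, 8 were lower in both libraries of the floxed strain than in all 3 PDX libraries, against 34.9% of all genes. In the other direction there were 0, against 32.1% of all genes. Mcm2, a subunit of the MCM helicase, was at 192 CPM in myosin IIA KO CAFs, 239.9 CPM in Cre- CAFs, 312 CPM in Fn1 siRNA CAFs, 312 CPM in control siRNA CAFs and 297 CPM in untreated PDX CAFs. Mcm5 stood at 161 CPM in myosin IIA KO CAFs, 189.8 CPM in Cre- CAFs, 287 CPM in Fn1 siRNA CAFs, 282 CPM in control siRNA CAFs and 316 CPM in untreated PDX CAFs, and Mcm7 at 158, 187, 241, 244 and 250.3 CPM in the same libraries. Both libraries of the floxed strain lay below all 3 PDX libraries in Mcm2, Mcm3, Mcm4, Mcm5 and Mcm7, but not in Mcm6, which stayed between 263 and 287 CPM. The loading factors Cdc6 and Cdt1, which bring the helicase to replication origins, were also lower in the floxed strain. Cdc6 was at 24.2 CPM in myosin IIA KO CAFs, 21.8 CPM in Cre- CAFs, 39.5 CPM in Fn1 siRNA CAFs, 41.8 CPM in control siRNA CAFs and 45.7 CPM in untreated PDX CAFs. Cdt1 was at 70.9 CPM in myosin IIA KO CAFs and 82.8 CPM in Cre- CAFs, below the 127 to 152 CPM of the PDX libraries.

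Rrm2, the small subunit of ribonucleotide reductase, departed from the other replication genes. It was at 182 CPM in myosin IIA KO CAFs, 147 CPM in Cre- CAFs, 191 CPM in Fn1 siRNA CAFs, 192 CPM in control siRNA CAFs and 150.3 CPM in untreated PDX CAFs. Myosin IIA KO CAFs and the transfected lines thus lay above Cre- and untreated PDX CAFs. Tyms, which encodes thymidylate synthase, stayed between 62.6 and 72.1 CPM. Pcna, the sliding clamp gene, was at 172 CPM in myosin IIA KO CAFs, 184 CPM in Cre- CAFs, 239 CPM in Fn1 siRNA CAFs, 229.8 CPM in control siRNA CAFs and 242 CPM in untreated PDX CAFs, and is uncertain because the pseudogene Pcna-ps2 was also counted. Counts of Pcna-ps2 were 33.3% of those of Pcna in myosin IIA KO CAFs and 30.5% in Cre- CAFs, against 14.0% with Fn1 siRNA, 14.0% with control siRNA and 14.7% without transfection.

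Of the mitosis genes, Cdc20, the activator of the anaphase-promoting complex, had the highest TPM in each library. It was at 162 CPM in myosin IIA KO CAFs, 194 CPM in Cre- CAFs, 182 CPM in Fn1 siRNA CAFs, 176 CPM in control siRNA CAFs and 221 CPM in untreated PDX CAFs. Ube2c, the ubiquitin-conjugating enzyme of the same complex, stood at 115 CPM in myosin IIA KO CAFs, 148 CPM in Cre- CAFs, 135 CPM in Fn1 siRNA CAFs, 134 CPM in control siRNA CAFs and 173 CPM in untreated PDX CAFs. In both genes the extremes were the same, with myosin IIA KO CAFs lowest and untreated PDX CAFs highest. Ccna2, the cyclin A2 gene, was at 152 CPM in myosin IIA KO CAFs, 183 CPM in Cre- CAFs, 159.8 CPM in Fn1 siRNA CAFs, 168 CPM in control siRNA CAFs and 209.8 CPM in untreated PDX CAFs. Plk1, the Polo kinase gene, was at 101 CPM in myosin IIA KO CAFs, 120.4 CPM in Cre- CAFs, 122 CPM in Fn1 siRNA CAFs, 123 CPM in control siRNA CAFs and 170.1 CPM in untreated PDX CAFs. Of the Ube2c exon length, 22.8% overlaps Tnnc2 on the other strand.

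Mybl2, which encodes B-Myb, was highest in control siRNA CAFs, whereas most mitosis genes were highest in untreated PDX CAFs. Its level was 28.4 CPM in myosin IIA KO CAFs, 37.5 CPM in Cre- CAFs, 66.2 CPM in Fn1 siRNA CAFs, 72.7 CPM in control siRNA CAFs and 58.9 CPM in untreated PDX CAFs. Both libraries of the floxed strain lay below all 3 PDX libraries, as they did for 6 of 19 mitosis genes, a share near the 34.9% of all genes. Untreated PDX CAFs had the highest level of 15 of the 19, against 20.9% of all genes. The proliferation marker Mki67 ran from 273 CPM in Fn1 siRNA CAFs to 383 CPM in untreated PDX CAFs, and Top2a, the topoisomerase that untangles chromosomes, from 384 CPM in control siRNA CAFs to 464 CPM in untreated PDX CAFs.

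The other mitosis genes did not share one order of libraries. Cdk1, the kinase that drives entry into mitosis, was at 136 CPM in myosin IIA KO CAFs, 157 CPM in Cre- CAFs, 193 CPM in Fn1 siRNA CAFs, 184 CPM in control siRNA CAFs and 200.3 CPM in untreated PDX CAFs. Like Cdk1, the Aurora A kinase gene Aurka (66.0 to 91.9 CPM), the checkpoint kinase gene Bub1 (50.1 to 74.3 CPM) and Birc5, the survivin gene (69.5 to 100.1 CPM), were lower in both libraries of the floxed strain than in all 3 PDX libraries. The cyclin B genes Ccnb1 (149.9 to 198 CPM) and Ccnb2 (85.7 to 118 CPM), the Aurora B gene Aurkb (66.7 to 98.1 CPM) and the checkpoint gene Bub1b (89.0 to 134 CPM) were, like the preceding genes, highest in untreated PDX CAFs, but the libraries of the floxed strain overlapped the PDX libraries in them. Foxm1, the transcription factor gene, stayed between 150.2 and 177 CPM. The kinesin gene Cenpe (108 to 127 CPM) and the spindle kinesin gene Kif11 (105.3 to 142 CPM) were highest in Cre- CAFs and low in both transfected libraries, and Cenpf was highest in myosin IIA KO CAFs, at 107 CPM, against 67.0 CPM in Fn1 siRNA CAFs.

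Among cytokinesis genes, Anln (ENSMUSG00000036777, mm10 chr9:22332012-22389188, minus strand), which encodes the ring scaffold anillin, was the highest in CPM. It was at 214 CPM in myosin IIA KO CAFs, 257 CPM in Cre- CAFs, 349 CPM in Fn1 siRNA CAFs, 350.4 CPM in control siRNA CAFs and 381 CPM in untreated PDX CAFs. Kif23, the kinesin subunit of centralspindlin, was at 77.3 CPM in myosin IIA KO CAFs, 88.2 CPM in Cre- CAFs, 93.5 CPM in Fn1 siRNA CAFs, 99.6 CPM in control siRNA CAFs and 97.7 CPM in untreated PDX CAFs. Its partner Racgap1 lay between 195 CPM in myosin IIA KO CAFs and 287 CPM in untreated PDX CAFs. In Anln, Kif23 and Racgap1 both libraries of the floxed strain lay below the 3 PDX libraries. Prc1, which bundles central spindle microtubules, was at 132 CPM in myosin IIA KO CAFs, 149.9 CPM in Cre- CAFs, 135 CPM in Fn1 siRNA CAFs, 137 CPM in control siRNA CAFs and 159 CPM in untreated PDX CAFs. Incenp, the scaffold of the Aurora B complex, was at 129 CPM in myosin IIA KO CAFs, 129.7 CPM in Cre- CAFs, 139.8 CPM in Fn1 siRNA CAFs, 133 CPM in control siRNA CAFs and 149.7 CPM in untreated PDX CAFs. With the deposited gene length it had the highest TPM of the group. That length is 3217 bases, against 4329 merged exon bases in the GENCODE M21 annotation, so the TPM of Incenp and its rank depend on the length used. Ect2, the exchange factor for RhoA, ran from 81.4 to 115 CPM, Kif20a, a central spindle kinesin, from 114 to 148 CPM, Cep55, an abscission factor, from 39.6 to 57.2 CPM and Cit, which encodes citron kinase, from 43.5 to 53.4 CPM. Of the Kif20a exon length, 29% overlaps Cdc23 on the other strand.

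The comparison of myosin IIA KO with Cre- CAFs asks whether transcripts of the division machinery differ where the heavy chain of its contractile ring motor is depleted. The cultures came from mice with and without Cre, so animal, tumor, cell line and Cre differ between these libraries along with Myh9. Which of these a difference follows was not tested. The differences were small and mostly downward outside the G1/S group. Of 54 members, 0 were over 2-fold higher, against 3.29% of the 13360 genes compared, and 0 were over 2-fold lower, against 1.74% of genes. At 1.5-fold, E2f2 was the 1 member higher, against 7.31% of genes, and 0 were lower, against 5.21% of genes. Log2 ratios were below 0 for 41 of 54 members, against 51.2% of all genes, and above 0 for 13, against 48.8% of genes. With scaling by library totals, 35 members and 39.2% of genes were below 0, and 40 or 41 members lay below the median of all genes under each of the 4 scalings. Among the 9775 genes at 10 CPM or more, which are closer to the members in level, 1.66% were over 2-fold higher and 0.747% over 2-fold lower. At 1.5-fold these shares were 4.34% and 2.99%. The counting interval lay wholly below 0 for 34 members, against 26.7% of genes, and wholly above 0 for 6, against 24.8% of genes. Intervals narrow with more counts. Of the 9775 genes at 10 CPM or more, 3074 had an interval wholly below 0 and 2646 wholly above.

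By group, the median log2 ratio of myosin IIA KO over Cre- CAFs was -0.19 for replication, -0.17 for mitosis and -0.16 for cytokinesis, beside -0.0064 for all genes. The groups of replication, mitosis and cytokinesis had 9 of 11, 16 of 19 and 8 of 9 members below 0. In G1/S control 8 of 15 were below 0, and the median of -0.013 turned to 0.060 with library totals. The ratios of this group had an SD of 0.37 over its 15 genes, against 0.19 over the 11 of replication. Ccnd2 (log2 ratio -0.40, interval -0.46 to -0.35), Ccnd1 (-0.39, -0.62 to -0.16) and Cdk4 (-0.39, -0.43 to -0.34) were lower in myosin IIA KO CAFs. Above Cre- CAFs were E2f2 at 0.93 (0.64 to 1.23), Rb1 at 0.54 (0.41 to 0.66) and Cdkn2b at 0.37 (0.26 to 0.49). The ratio of Cdk6 was -0.29 with an interval of -1.13 to 0.53, so no difference was detectable at this depth.

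**Figure D4:**
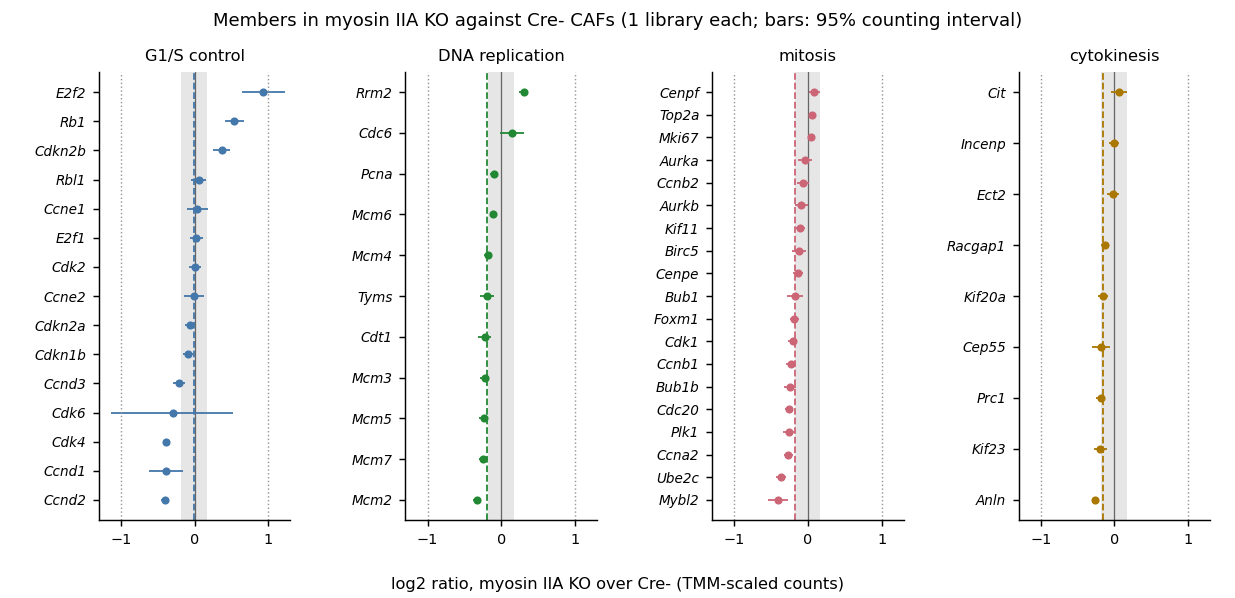
Log2 ratio of myosin IIA KO over Cre- CAFs for each of the 54 members, sorted within its group, with 95% counting intervals (bars), the median of the group (dashed), 2-fold (dotted) and the middle 50% of all 13360 genes compared (grey band). Most replication, mitosis and cytokinesis genes lie left of 0 and inside 2-fold, and E2f2 lies farthest right at 0.93.

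In the replication group, Mcm2 was lowest at -0.32 (interval -0.38 to -0.27), followed by Mcm7 at -0.24 (-0.30 to -0.19), while Rrm2 at 0.30 (0.24 to 0.37) and Cdc6 at 0.15 (-0.02 to 0.31) were the only members above 0. In the mitosis group the lowest were Mybl2 at -0.40 (-0.54 to -0.26), Ube2c at -0.36 (-0.43 to -0.29) and Ccna2 at -0.26 (-0.32 to -0.20). The kinetochore gene Cenpf at 0.09, Top2a at 0.05 and Mki67 at 0.04 were the 3 above 0. In the cytokinesis group Anln was lowest at -0.26 (-0.31 to -0.21), with Kif23 at -0.19 (-0.28 to -0.11) and Prc1 at -0.19 (-0.25 to -0.12). Incenp at -0.01 and Ect2 at -0.02 were near 0, and Cit at 0.06 (-0.05 to 0.17) was the only member of the group above it. By their medians, cytokinesis genes stood no farther from 0 than those of replication or mitosis.

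Adipocyte markers moved with this comparison. All 6 had a higher level in myosin IIA KO CAFs, with log2 ratios from 0.71 for Pparg to 3.23 for Cidec and a summed level of 3336 CPM in myosin IIA KO CAFs and 953 CPM in Cre- CAFs, and Adipoq, which is specific to fat cells, was at 159 CPM in myosin IIA KO CAFs and 18.9 CPM in Cre- CAFs. The 8 fibroblast markers summed to 32894 CPM in myosin IIA KO CAFs and 44895 CPM in Cre- CAFs, but did not move evenly. The largest terms of the sum were Col1a1 (log2 ratio -0.38), Col1a2 (-0.30) and Acta2 (-1.19). Dcn was at -0.65, Fap at -0.41, Thy1 at -0.18, Pdgfrb at -0.09 and Pdgfra at 0.09. Whether these markers have a part in the lower division transcripts was not tested.

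Genes of the same processes that are not among the 54 also lay mostly below 0 in this comparison. These wider lists were chosen with earlier results of these data known and are read in the same libraries, so they are not independent of the members. Median log2 ratios were -0.13 for 34 further replication genes, -0.10 for 40 of mitosis, -0.079 for 25 of cytokinesis and -0.059 for 24 of G1/S control. In all, 89 of 122 were below 0, against 51.2% of all genes. None was over 2-fold higher, against 3.29% of genes, and 2 were over 2-fold lower, near the 1.74% of all genes. Myl9, a regulatory light chain of myosin II, was at 471 CPM in myosin IIA KO CAFs and 948 CPM in Cre- CAFs (log2 ratio -1.01, interval -1.04 to -0.98, which includes 2-fold), and Cdkn1c, which encodes the inhibitor p57Kip2, had 32 counts in myosin IIA KO CAFs and 63 in Cre- CAFs (-1.05, interval -1.72 to -0.42). Myh10, the gene of the myosin IIB heavy chain, was at 403 CPM in myosin IIA KO CAFs and 528 CPM in Cre- CAFs (-0.39). Cdkn1a, which encodes the p53-responsive inhibitor p21, was at 231 CPM in myosin IIA KO CAFs and 169 CPM in Cre- CAFs (0.46).

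In the fibronectin knockdown pair the members lay closer together than in the other 3 comparisons, and so did all genes, with an SD of log2 ratios of 0.25 over genes, against 0.51, 0.51 and 1.32 in the others. Between Fn1 siRNA and control siRNA CAFs, 0 of 54 were over 2-fold higher, against 0.494% of 12943 genes, and 0 over 2-fold lower, against 0.34% of genes. At 1.5-fold, 0 were higher, against 1.84% of genes, and 0 lower, against 1.89% of genes. Among 9269 genes at 10 CPM or more these shares were 0.388% and 0.162%, so counts of 0 among 54 are near the background. Ratios ran from -0.25 for E2f2 to 0.14 for Ect2. Median log2 ratios were -0.12 for G1/S control, -0.013 for replication, -0.031 for mitosis and -0.029 for cytokinesis, beside -0.0029 for all genes. Above 0 were 16 of 54 members, against 49% of genes, and below 0 were 38, against 51% of genes, or 44 and 58.7% of genes with library totals. In G1/S control 12 of 15 were below 0, among them Cdk6 at -0.24 (interval -0.39 to -0.09), Ccnd1 at -0.16 (-0.22 to -0.10) and Cdkn2a at -0.13 (-0.19 to -0.07), while Cdk4 was at 0.08 (0.04 to 0.12). The 6 helicase genes lay between -0.06 for Mcm4 (-0.11 to -0.01) and 0.01 for Mcm3. Of the 122 further genes, 83 were below 0 and none was past 1.5-fold in either direction. The 6 adipocyte markers summed to 448.8 CPM in Fn1 siRNA CAFs and 406.5 CPM in control siRNA CAFs. Of these markers 3 reached 1 CPM in each library of the pair, and Adipoq had no count in either.

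**Figure D5:**
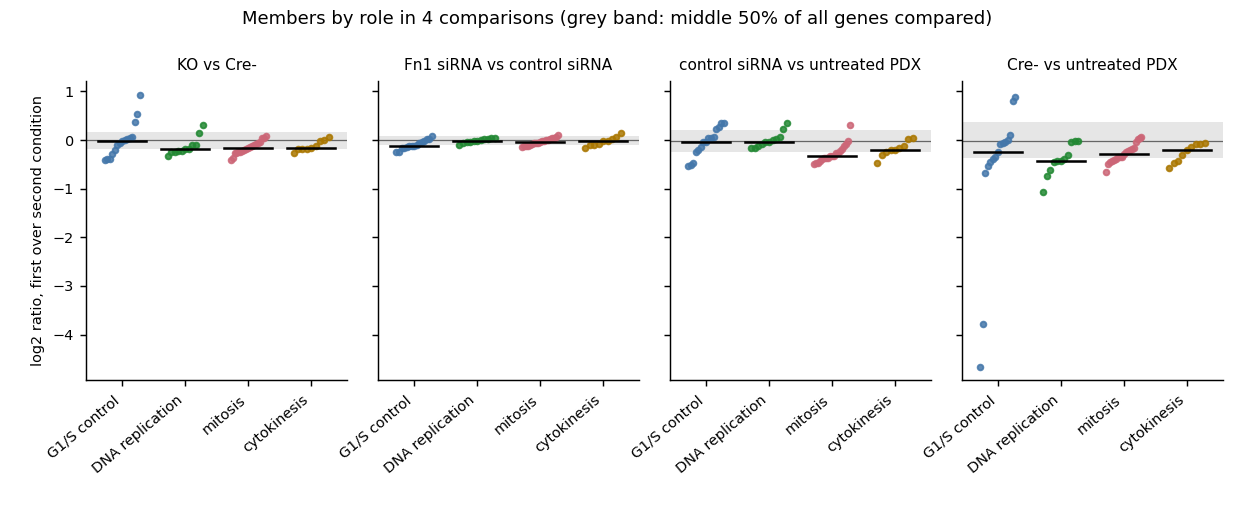
Log2 ratio of the first over the second condition for the 54 members by group (points) in the 4 comparisons, with group medians (black lines), the median of all genes (grey line) and the middle 50% of all genes compared (grey band). The points are tightest for Fn1 siRNA against control siRNA, the mitosis median is -0.32 for control siRNA against untreated PDX, and Ccnd1 and Cdk6 stand at -3.77 and -4.66 for Cre- against untreated PDX.

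Control siRNA and untreated PDX CAFs differ by transfection. Whether they share line, passage or harvest is not stated in the sources used here, so these cannot be told apart from transfection. Between this pair the mitosis genes lay lowest. In mitosis 18 of 19 members were below 0 with a median of -0.32, and in cytokinesis 7 of 9 with a median of -0.21, beside -0.014 for all genes. The medians of G1/S control and of replication were both -0.037. With genes at 10 CPM or more alone, the G1/S median was 0.0040. Of the 54, 0 were over 2-fold higher, against 2.98% of 13125 genes, and 0 over 2-fold lower, against 2.74% of genes. At 1.5-fold, 0 were higher, against 7.7% of genes, and 0 lower, against 9.02% of genes, or 4.94% and 4.92% of genes at 10 CPM or more. Above 0 were 15 of 54 members, against 48.3% of genes, and below 0 were 39, against 51.7% of genes, or 47 and 61% of genes with library totals. Cenpf at -0.50 (interval -0.59 to -0.41), Plk1 at -0.47 (-0.54 to -0.40) and the Aurora B kinase gene Aurkb at -0.46 (-0.55 to -0.38) were lowest in mitosis, and Mybl2 at 0.30 (0.20 to 0.41) was the 1 mitosis gene above 0. Ect2 was lowest in cytokinesis at -0.48 (-0.56 to -0.40). Higher with control siRNA were Ccnd2 at 0.36 (0.31 to 0.41), Rrm2 at 0.35 (0.29 to 0.42) and Ccne2 at 0.35 (0.21 to 0.48). Of 40 further mitosis genes, 39 were below 0, with a median of -0.26, whereas 25 further cytokinesis genes had 16 above 0 and a median of 0.023. Both cultures also differed in Myc, which encodes a growth-promoting transcription factor, at 232 CPM in control siRNA CAFs and 84.6 CPM in untreated PDX CAFs, and in Cdkn1a, at 195 CPM in control siRNA CAFs and 110.2 CPM in untreated PDX CAFs.

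The comparison of Cre- with untreated PDX CAFs sets the origins side by side, without knockout or siRNA, but with tamoxifen in the first culture only. It shares Cre- CAFs with the first comparison and untreated PDX CAFs with the third. Members over 2-fold lower in Cre- CAFs were Cdk6, Ccnd1 and Cdc6, 3 of 54 against 8.4% of 13577 genes, and 0 were over 2-fold higher, against 11% of genes. Among 9935 genes at 10 CPM or more these shares were 5.62% (lower) and 6.64% (higher), so the share of members over 2-fold lower was near that of genes of like level. At 1.5-fold, 7 were lower, against 15.7% of genes, with Mcm5 at -0.74 (interval -0.79 to -0.68), Cdkn2a at -0.68 (-0.74 to -0.63), Mybl2 at -0.65 (-0.77 to -0.53) and Cdt1 at -0.62 (-0.70 to -0.54) besides those 3. Cdkn1b at 0.79 and Rb1 at 0.89 (0.71 to 1.06) were the 2 that were higher, against 18.4% of genes. Cdc6 was 2.10-fold lower, at -1.07 with an interval of -1.22 to -0.92 that includes 2-fold. Above 0 were 7 of 54 members, against 48% of genes, and below 0 were 47, against 52% of genes, with medians of -0.42 for replication, -0.28 for mitosis, -0.24 for G1/S control and -0.21 for cytokinesis, beside -0.028 for all genes. The further genes had medians of -0.35 for replication, -0.088 for mitosis, -0.13 for G1/S control and 0.11 for cytokinesis, where 15 of 25 were above 0 and 6 over 1.5-fold higher. Adipocyte markers were higher in Cre- CAFs for 6 of 6, with a summed level of 953 CPM in Cre- CAFs and 556 CPM in untreated PDX CAFs, and Adipoq was at 18.9 CPM in Cre- CAFs and had no count in untreated PDX CAFs. Their part in the lower division transcripts was not tested.

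Both libraries of the floxed strain lay below all 3 PDX libraries for 27 of 54 members, against 34.9% of the 14022 genes, and above them for 4, namely Cdk2, Rb1, Cdkn1b and Cenpf, against 32.1% of genes. These orders take no account of counting error. For Cenpf the log2 ratio of Cre- over untreated PDX CAFs was 0.02 (interval -0.06 to 0.11). For Cdk2 the counting intervals of Cre- (97.1 to 104.9 CPM) and control siRNA CAFs (93.1 to 100.7 CPM) overlap. By group, 8 of 11 replication genes, 8 of 15 of G1/S control, 5 of 9 of cytokinesis and 6 of 19 of mitosis lay below. Strain, tumor of origin, host mouse and tamoxifen separate the same libraries and cannot be told apart in these data. Myosin light chain genes, which cells also use outside division, lay the other way from the cytokinesis members between Cre- and untreated PDX CAFs. Myl9 was at 948 CPM in Cre- CAFs and 166 CPM in untreated PDX CAFs (log2 ratio 2.51). Myl12a was at 467 CPM in Cre- CAFs and 191 CPM in untreated PDX CAFs. The heavy chain gene Myh9 was at a log2 ratio of 0.16, and Acta2, the αSMA gene, at 2.36.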

How the data were processed

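RNA of 5 mouse CAF cultures was sequenced, each condition once. The table the authors deposited holds raw counts by gene and a gene length in bases. The submitters' processing notes name mm10, and no aligner, counting tool, annotation release or use of strand is stated in the sources used here. Genes that overlap or have near-identical copies are therefore uncertain. Identifiers were looked up in GENCODE M21 (GRCm38), where 54409 were found, 98.3% of them at the same coordinates. The deposited length equalled the merged exons for 50 of 54 members, and was shorter for Incenp, Kif20a, Kif11 and Cep55. Rows without a gene name (104) took 0.0422 to 0.0551% of counts. Where a symbol had several rows, the row with most counts was used.

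TMM factors (edgeR 4.0.16 in R 4.3.3) were computed on the deposited counts, pair by pair for ratios and across the 5 libraries together for CPM. Before log2 ratios were taken, 0.5 counts were added in proportion to library size, and a gene had to reach 1 CPM in either library of the pair. TPM used the deposited gene length. Intervals of 95% were exact binomial for ratios and exact Poisson for levels, and cover counting error only. The study's 2-fold threshold was applied without its adjusted p-value, and 1.5-fold as a further limit. No test was made, since a single library leaves no replicate error. Totals of 22961620 to 26596351 counts make 3 counts 0.108 to 0.135 CPM. The ratio code was tested on simulated data. Promoters came from RefSeq (GRCm38.p6) and were matched by symbol. Tables were handled with pandas 2.3.3 and numpy 2.4.6 in Python 3.11.15, intervals with scipy 1.17.1 and figures with matplotlib 3.10.9.

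Members, role groups and the wider lists were chosen with earlier results of these data known. Values in all libraries are given for the 3 members of each group with the largest ratio between myosin IIA KO and Cre- CAFs, members over 2-fold in any comparison, the 2 of each group with the highest TPM in untreated PDX CAFs, and the cyclin D, cyclin E and inhibitor genes. Other members are given by range or where they were lowest or highest in a comparison, which was chosen after their values were seen. Genes of the wider lists were named if over 2-fold or among the 3 with the largest ratio in their list, and the text gives part of these. Results were recomputed with size factors of DESeq2 1.42.0, with library totals, with upper-quartile factors, with TMM across the 5 libraries, with 5 counts added, without the filter, at 10 CPM, for intervals wholly beyond 2-fold, for protein-coding genes alone, and, for cyclin shares, without length correction.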

Additional observations from a re-analysis of the deposited data

How the results depend on the processing

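No paired analysis was possible because each condition has 1 library, and for the same reason no library could be left out. Of 263 alternative values for counts, medians and cyclin shares, 218 stayed within 1.5 times of a count, within the typical counting interval of a single gene for a median, or within the counting interval of a share. With library totals, 1 member (E2f2) passed 2-fold upward in myosin IIA KO over Cre- CAFs, and the medians in that comparison were -0.12 for replication, -0.098 for mitosis and -0.084 for cytokinesis. Between control siRNA and untreated PDX CAFs they were -0.11 for replication and -0.28 for cytokinesis. Of 108 ratios of the named members, 9 lay on the other side of 0 with library totals. In 2 of these the counting interval had been clear of 0, Cdkn2a in myosin IIA KO over Cre- CAFs (0.0060) and Mcm2 in control siRNA over untreated PDX CAFs (-0.0024), and the other 7, which include Incenp and Ccne2 in myosin IIA KO over Cre- CAFs, had intervals that included 0.

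Counts over all genes moved most. Without a filter, the genes past 2-fold, upward and downward, numbered 3775 and 2615 for myosin IIA KO against Cre-, 2451 and 2776 for Fn1 siRNA against control siRNA, 3259 and 3002 for control siRNA against untreated PDX, and 5143 and 3817 for Cre- against untreated PDX. A minimum of 10 CPM left 162 and 73 in the first pair, 8 and 5 in the second, 145 and 114 in the third and 660 and 558 in the last. Requiring the full counting interval past 2-fold left 223 and 83 in the first pair, 10 and 5 in the second, 172 and 111 in the third and 974 upward in the last. For Fn1 siRNA against control siRNA, protein-coding genes alone gave 38 and 22, and 5 added counts gave 18 lower. Fewer genes are compared under the stricter filters, and genes of few counts enter without one.

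Without length correction, the shares of Ccnd1 and Ccnd2 were 4.07% and 65.2% in myosin IIA KO CAFs and 4.19% and 67.8% in Cre- CAFs. Those of Ccnd1, Ccnd2 and Ccnd3 were 29.8%, 52.9% and 17.2% with Fn1 siRNA, 31.5%, 50.5% and 17.9% with control siRNA, and 35.0%, 42.7% and 22.3% in untreated PDX CAFs.

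Depth limits Cdk6 in the floxed strain, at 25 and 29 counts, and E2f2. Counts do not measure protein, phase or division rate, and 1 library per condition gives no spread between cultures.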

Other observations

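Among the wider lists, Pttg1, which encodes securin, the inhibitor of separase, was the mitosis gene farthest apart between origins, at 12.6 CPM in Cre- CAFs and 55.8 CPM in untreated PDX CAFs (log2 ratio -2.14, interval -2.32 to -1.97), and at 17.7 CPM in myosin IIA KO CAFs, 47.3 CPM with Fn1 siRNA and 43.7 CPM with control siRNA. In myosin IIA KO against Cre- CAFs, the septin gene Sept11 was at 567 CPM against 822 CPM (-0.54), Cks2, a subunit that binds cyclin-dependent kinases, at 42.2 CPM against 56.3 CPM (-0.41), Lmnb1, the lamin B1 gene, at 149 CPM against 194 CPM (-0.38), Dut, the dUTPase gene, at 78.5 CPM against 103 CPM (-0.39) and Gins2, a subunit of the replicative helicase, at 44.3 CPM against 57.9 CPM (-0.38). Between control siRNA and untreated PDX CAFs, Myl9 was at 497 CPM against 166 CPM (1.58) and Cdkn1c had 40 counts against 82 (-1.16). Between Cre- and untreated PDX CAFs, Myl12b, another myosin light chain gene, was at 8.61 CPM against 2.75 CPM (1.64).

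CHR letters occurred in 26 of 37 promoters of the further mitosis genes and 5 of 21 of the further cytokinesis genes, against 19.2% of all promoters, and E2F letters in 8 of 33 promoters of the further replication genes, against 2.26% of all promoters. The further cytokinesis genes include septin, myosin and membrane trafficking genes that cells also use outside division.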
